A study of Mus musculus with 9 samples.

Results

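The 78 genes described here encode the proteins of the cytosolic ribosome of the mouse, 31 of the small 40S subunit and 47 of the large 60S subunit. They were chosen by gene symbol: Rpl or Rps followed by a number and at most the letter a or x, Rplp0 to Rplp2, Rpsa, Rpl22l1 and Rps27l, with a value above 1 in at least 3 of the 9 libraries. All 78 symbols that matched also passed that filter, out of 12923 genes that passed and 24054 rows in all. Primary cortical neurons of wild-type (Wt) C57BL/6 mice were used after 6 days in culture, and their polyadenylated RNA was sequenced in 3 groups of 3 libraries. The normoxia group was the control. The hypoxia group was kept in 0.2% oxygen for 7 hours. The third group was kept in the same low oxygen for 7 hours with 10 nM of the thyroid hormone T3 (triiodothyronine) in the medium. No group received T3 in normal oxygen. All groups shared a Neurobasal medium with B27, a supplement whose usual formula itself contains T3. Whether a group's 3 libraries are 3 separate cultures is not stated in the labels, so the p-values rest on a spread that may be technical.

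A ribosome is assembled in the nucleolus from ribosomal RNA and 1 copy each of nearly all of these proteins, and unassembled proteins are degraded, so cells make them in matched amounts. Their mRNAs are short and abundant and usually begin with a run of pyrimidines, the 5′ terminal oligopyrimidine (TOP) tract, through which the mTORC1 kinase and the binding protein Larp1 control translation and stability. Low oxygen is known to restrain mTORC1 and protein synthesis, and thyroid hormone acts on transcription through nuclear receptors.

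Each value below is a gene's reads after the authors' scaling for library size (CPM with TMM normalization), and a log2 change is a difference of group means of log2(value + 1), which slightly understates changes of low genes. Tests are by limma over all 12923 genes with Benjamini-Hochberg adjustment, two-sided, and "rose" or "higher" is used of adjusted p under 0.05. Libraries carry their group's name and their column's own number, normoxia 1 to 3, hypoxia 7 to 9 and T3 11 to 13, and the 3 values of a group are given in that order. Read depth ran from 17182338 reads in hypoxia 7 to 33937842 in normoxia 2. The labels were borne out by Slc2a1, a glucose transporter induced by low oxygen, with a log2 change of 2.40 in hypoxia, and by Hr, a direct T3 target, with 2.57 when T3 was added (not every deposited value of Hr is a whole number of reads). All 15 neuron markers passed the filter, and their summed value was 8033 to 8707 in the normoxia libraries, 6266 to 6821 in those of hypoxia and 6056 to 6151 in those with T3. The median log2 change of these 15 was -0.05 in hypoxia and -0.03 with T3 against normoxia. In each of these comparisons with normoxia 5 of them were lower at adjusted p under 0.05, beside 19.3% and 29.5% of all genes. With T3 against hypoxia their median was -0.11 and 3 of the 15 were lower, beside 3.75% of all genes. Summed values of markers of other cells shifted as well, with ranges that overlapped between groups. In hypoxia 1 of 10 tested astrocyte, 1 of 9 oligodendrocyte lineage and 1 of 13 progenitor and cell cycle markers were higher, beside 14.3% of all genes. All their log2 changes in hypoxia were positive, with medians of 0.93, 0.83 and 0.45. With T3 against hypoxia the medians were 0.07, -0.03 and 0.04, and with T3 against normoxia 0.90, 0.99 and 0.56. The summed value of 12 astrocyte markers was 191 to 309, 206 to 407 and 274 to 380 in the same order, that of 11 oligodendrocyte lineage markers 50.2 to 154, 88.6 to 229 and 145 to 203, and that of 14 progenitor and cell cycle markers 69.1 to 198, 126 to 254 and 162 to 254. None of the 11 microglial or 12 endothelial and mural markers passed the filter. The share of the row Rn45s, precursor of the ribosomal RNAs, was 3.25% to 4.21% in the normoxia libraries, 1.04% to 1.33% in those of hypoxia, and with T3 it was 1.04% to 2.65%. The part of these shifts in the results below was not tested.

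To show where pyrimidine runs lie at annotated starts, below are 60 bases around the RefSeq transcription start (40 before it and 20 from it on, GRCm38.p6, the same build as mm10) for 4 members with a log2 change in hypoxia among the largest and 4 with one among the smallest, taken from members with a single entry. Capitals mark the longest run of C and T within the 20 bases on either side of the start.
Rps12: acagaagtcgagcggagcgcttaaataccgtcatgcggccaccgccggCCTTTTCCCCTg
Rpl41: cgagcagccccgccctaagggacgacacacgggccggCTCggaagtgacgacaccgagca
Rpl13a: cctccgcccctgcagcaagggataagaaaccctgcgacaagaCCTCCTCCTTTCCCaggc
Rpl35: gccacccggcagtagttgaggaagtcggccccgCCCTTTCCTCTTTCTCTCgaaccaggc
Rpl26: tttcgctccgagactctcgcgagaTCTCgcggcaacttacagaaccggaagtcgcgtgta
Rpl22l1: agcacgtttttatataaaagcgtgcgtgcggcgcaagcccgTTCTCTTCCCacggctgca
Rpl4: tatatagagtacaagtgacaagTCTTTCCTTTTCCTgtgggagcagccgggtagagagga
Rpl28: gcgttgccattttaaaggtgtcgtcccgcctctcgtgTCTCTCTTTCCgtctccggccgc
The windows of Rps12 (chr10:23787190-23787249), Rpl41 (chr10:128549149-128549208), Rpl13a (chr7:45128726-45128785) and Rpl35 (chr2:39005112-39005171) are on the minus strand. The RefSeq gene Rps12 extends upstream to chr10:23787383, so the start shown for it lies inside the gene and not at its 5′ end. Those of Rpl26 (chr11:68901526-68901585), Rpl22l1 (chr3:28805468-28805527), Rpl4 (chr9:64173347-64173406) and Rpl28 (chr7:4792925-4792984) are on the plus strand. The runs were 11, 3, 14 and 18 bases long in the first 4 members and 4, 10, 14 and 11 bases in the last 4, so long and short runs occurred in both sets. The marked runs of Rpl41, Rpl26 and Rpl4 end before the annotated start, and those of Rps12, Rpl13a and Rpl22l1 begin after its first base. Annotated starts can differ from those in use, so the marks do not tell which runs are TOP tracts.

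Together the 78 genes held a share of the library that stepped up from group to group. In normoxia 1, 2 and 3 they took 1.17%, 1.27% and 1.36% of the summed values, in hypoxia 7, 8 and 9 they took 1.63%, 1.67% and 1.79%, and in T3 11, 12 and 13 they took 2.06%, 1.99% and 1.82%. The groups did not overlap, and hypoxia 9 and T3 13 stood closest to each other across the line between their groups. The median member, on the log2 scale relative to its own normoxia mean, lay between -0.07 and 0.11 in normoxia, at 0.26, 0.26 and 0.35 in hypoxia and at 0.62, 0.54 and 0.41 with T3. Within a group the members also shared their order: normoxia 3 was the highest normoxia library for 73 of the 78, hypoxia 9 the highest hypoxia library for 65, T3 11 the highest T3 library for 74 and T3 13 the lowest for 76. Summed astrocyte, oligodendrocyte lineage and progenitor markers were also highest in normoxia 3 and hypoxia 9 within those groups, but with T3 in T3 12. The part of cell content in the order of the members was not tested. These are bulk samples, in which more cells of a kind and more RNA per cell cannot be told apart.

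**Figure D1:**
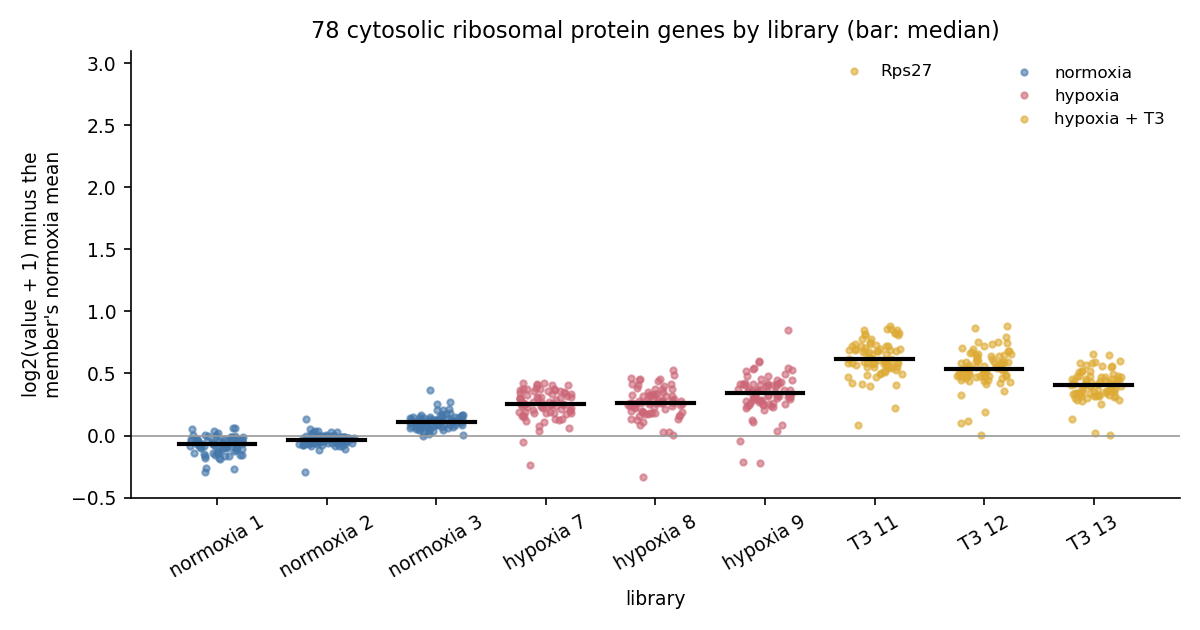
Each point is 1 of the 78 ribosomal protein genes in 1 library, as log2(value + 1) minus that gene's mean in normoxia, and the bars are library medians. The medians climb from -0.07 in normoxia 1 to 0.62 in T3 11, with T3 13 at 0.41, and the single point near the top in T3 11 is Rps27.

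In 62 of the 78 members all 3 groups were apart and in the order normoxia, hypoxia, hypoxia with T3, against 7.32% of all genes tested. The group means were in that order for 75 members, and the other 3 were Rpl3, Rpl26 and Rpl30.

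The response of the neurons to low oxygen is addressed by hypoxia against normoxia. In hypoxia 61 of the 78 ribosomal protein genes were higher and none was lower, where 14.3% of all genes tested were higher and 19.3% lower (33.6% in either direction). With an unadjusted p under 0.05, 69 were higher and 0 lower, beside 5775 of all 12923 genes in either direction. The median change of the members was 0.29 on the log2 scale, a 1.22-fold increase, beside 0.00 over all genes. Members without overlap between the groups numbered 71, against 20.7% of all genes. The 40S subunit had 27 of 31 members higher with a median of 0.30, and the 60S subunit 34 of 47 with a median of 0.28.

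The largest changes were shared between the subunits. Rps12, a protein of the beak of the 40S subunit, stood at 107, 134 and 150 in normoxia and at 171, 179 and 196 in hypoxia, so that every hypoxia library lay above every normoxia library. Its log2 change was 0.49 (SE 0.11, adjusted p = 0.0064). Rpl41, which encodes the smallest ribosomal protein, stood at 254, 287 and 327 and then at 373, 383 and 437, a log2 change of 0.46 (SE 0.10, adjusted p = 0.0053). Rpl17, a protein of the peptide exit tunnel, rose by 0.47 (SE 0.09, adjusted p = 0.0036). Rps27l, a paralog of Rps27 known as a p53 target, had the largest change at 0.57 (SE 0.15, adjusted p = 0.015), from values of 4.25, 4.53 and 6.00 to 6.56, 7.24 and 9.58. The call on Rps27l was lost without normoxia 1 (adjusted p = 0.056), normoxia 2 (0.051) or hypoxia 9 (0.060).

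**Figure D2:**
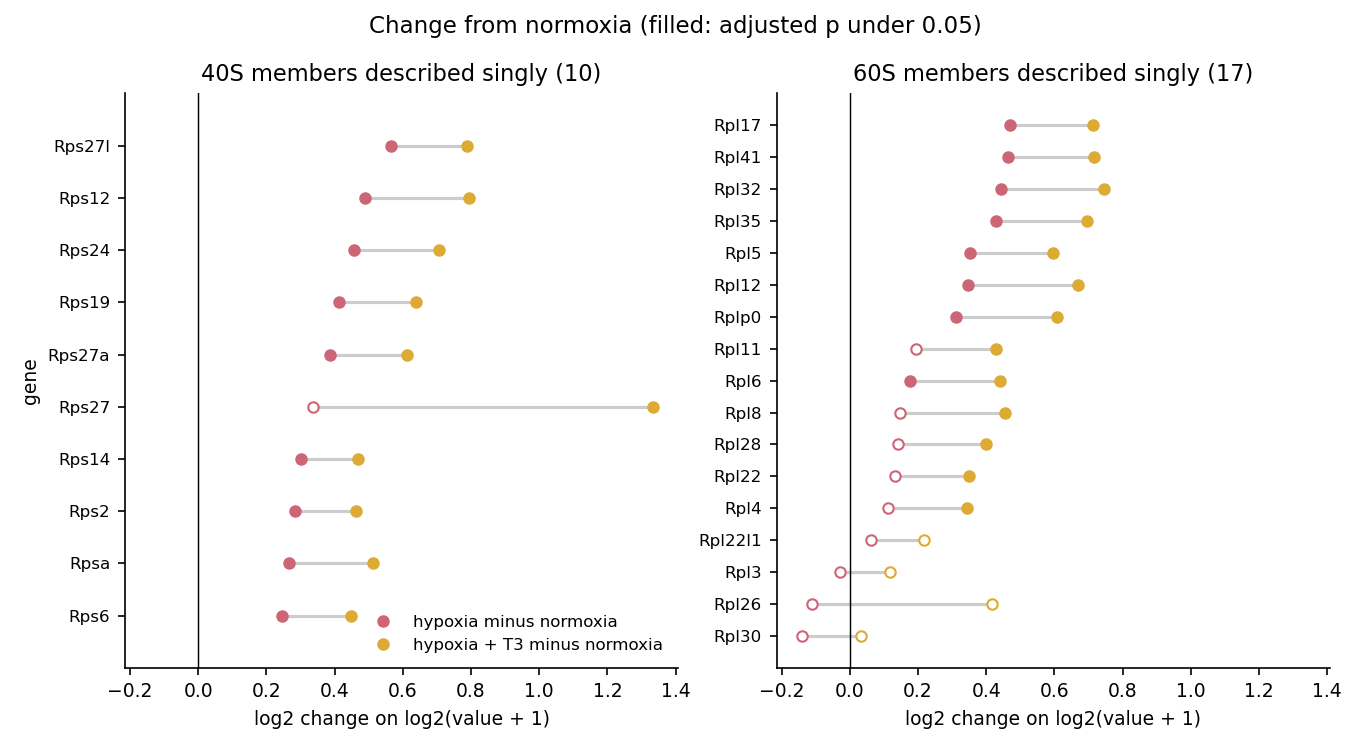
Log2 change from normoxia of 10 members of the 40S subunit and 17 of the 60S subunit that are described singly, in hypoxia (red) and in hypoxia with T3 (yellow), with filled circles for adjusted p under 0.05. The yellow circle lies to the right of the red one for every member drawn, and the open yellow circles are Rpl22l1, Rpl3, Rpl26 and Rpl30.

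By role, the acidic stalk that recruits elongation factors to the 60S subunit had 3 of 4 members higher. Its base protein Rplp0 stood at 399, 419 and 466 in normoxia and at 510, 514 and 567 in hypoxia, a log2 change of 0.31 (SE 0.08, adjusted p = 0.013). That call was lost without hypoxia 9 (adjusted p = 0.055). Rplp1 and Rpl12 also rose, with 0.31 and 0.35, while the fourth, Rplp2, missed the threshold at 0.18 (adjusted p = 0.056). Proteins of the exit tunnel and its rim, from which the new peptide emerges, had 7 of 9 members higher, with Rpl17, Rpl35 (0.43) and Rpl39 (0.36) among them. Rpl4, whose loop forms the narrow part of the tunnel together with Rpl17, had a log2 change of 0.11 (adjusted p = 0.13), and Rpl26, at the rim, -0.11 (adjusted p = 0.66). Of the pair that carries 5S RNA into the 60S subunit and can bind the p53 regulator Mdm2, Rpl5 rose by 0.35 (adjusted p = 0.0073), and Rpl11, at 0.19, narrowly missed the threshold (adjusted p = 0.0504; 0.048 without normoxia 3, 0.027 without T3 11 and 0.023 without T3 13).

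In the 40S subunit all 5 members of the list for the decoding centre and mRNA channel rose, among them Rps2 (0.28), Rps3 (0.27), Rps15 (0.21) and Rps23 (0.27). Rps6, the protein phosphorylated by the S6 kinases below mTORC1, stood at 210, 215 and 237 in normoxia and at 257, 258 and 270 in hypoxia, with no overlap. Its log2 change was 0.25 (SE 0.07, adjusted p = 0.016), a call lost without normoxia 1 (adjusted p = 0.055), normoxia 2 (0.052) or hypoxia 9 (0.059). Rpsa, also known as the laminin receptor precursor, rose by 0.27, and Rps27a, made as a fusion with ubiquitin, rose by 0.39. Of 11 members that are mutated in Diamond-Blackfan anaemia 8 were higher, among them Rps19, the gene most often affected (0.41), and Rps24 (0.46).

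The hypoxia count kept the upward direction under every alternative run, with no member lower. It ranged from 45 without hypoxia 9 to 67 without normoxia 3 or T3 13 when single libraries were left out. All genes higher numbered 1168, 1631 and 1816 in these fits. With equal column sums in place of the deposited scaling, the all-gene median was 0.13 and the member median 0.43. Then 73 members were higher, beside 3982 of 12937 genes, and the members stood above the shifted median as well.

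Whether T3 alters the hypoxic transcriptome is addressed by setting the T3 libraries against the hypoxia libraries. All 78 log2 changes were positive, and 18 members were higher and none lower, where 2.73% of all genes were higher and 3.75% lower (6.48% in either direction). Without adjustment 73 members had a p under 0.05, all of them higher, beside 3591 of all 12923 genes in either direction. The median change was 0.24, a 1.18-fold difference, beside -0.01 over all genes. In 65 members the groups did not overlap, against 15.8% of all genes.

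The adjusted p-values lay close to the threshold: those of the 18 ran from 0.030 to 0.0498, and 42 more members lay between 0.05 and 0.1. Of the 18 members 14 belong to the 60S subunit, among them Rpl4, Rpl6, Rpl7, Rpl8, Rpl21, Rpl22, Rpl23, Rpl23a, Rpl28, Rpl29, Rpl35, Rpl37a and Rplp2, and 4 to the 40S subunit, among them Rps4x, Rps23 and Rpsa, while the medians of the subunits were alike, 0.24 in both. Whether the subunits differ was not tested. The members with the smallest adjusted p were Rpl6 and Rpl8, the latter a protein beside the catalytic centre of the 60S subunit. Rpl8 stood at 245, 256 and 281 in hypoxia and at 344, 328 and 296 with T3, a log2 change of 0.31 (SE 0.07, adjusted p = 0.031). Every T3 library was above every hypoxia library, with T3 13 nearest to hypoxia 9. Rpl6 had a log2 change of 0.26 (SE 0.06, adjusted p = 0.030), Rpl4 of 0.23, Rpl35 of 0.27, Rpsa of 0.24 and Rpl22 of 0.22.

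The largest changes among members that did not pass were those of Rps27 and Rpl26, 1.00 and 0.53, both with low values (adjusted p = 0.23 and 0.093). Rpl12 had a log2 change of 0.32 (adjusted p = 0.051) and Rplp0 one of 0.30 (adjusted p = 0.0503); both passed without normoxia 3 (0.045 and 0.046), hypoxia 9 (0.046 and 0.044) or T3 13 (0.018 and 0.011), and Rpl12 also without normoxia 1 (0.044). Rps12 and Rpl41, among the largest in hypoxia, had 0.30 and 0.25 here (adjusted p = 0.10 and 0.13). The smallest changes were those of Rpl3 (0.15), Rpl22l1 (0.15), Rps14 (0.17) and Rpl30 (0.17).

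**Figure D3:**
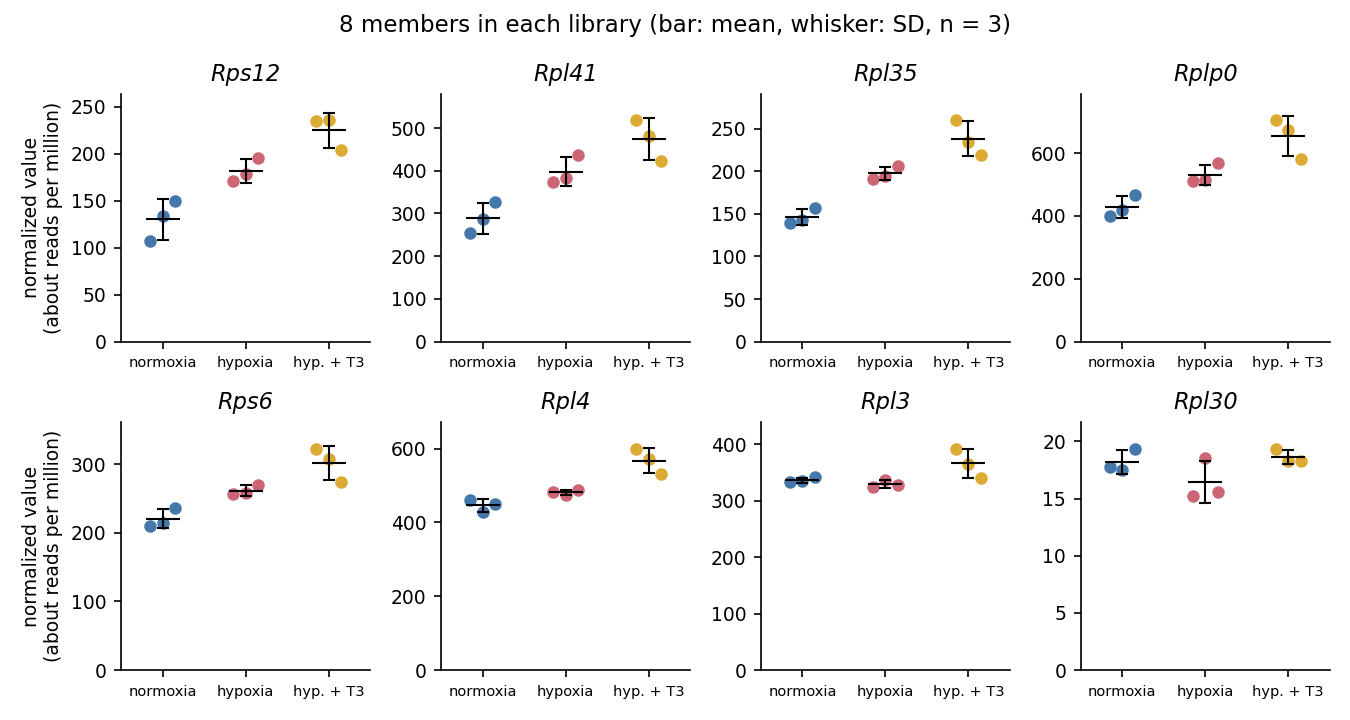
Values of 8 members in each library, after the authors' scaling, with group means and SD (n = 3). The group means of Rps12, Rpl41, Rpl35, Rplp0, Rps6 and Rpl4 are in the order normoxia, hypoxia, hypoxia with T3, and for Rpl3 and Rpl30 the normoxia and hypoxia libraries overlap.

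The T3 count rested on single libraries. No member was called without hypoxia 7, hypoxia 8, T3 11 or T3 12. All genes higher, 353 in the main fit, then numbered 47, 29, 23 and 19. In these fits 59, 62, 51 and 64 members had an unadjusted p under 0.05, beside 3003, 2483, 2217 and 2717 of all genes in either direction. The median change of the members was still 0.22, 0.23, 0.19 and 0.23. Without normoxia 2, 6 members were called (200 of all genes higher), and without T3 13, 65 were (715 of all genes). By edgeR's quasi-likelihood test on the recovered reads 17 members were higher (324 of all genes), and by DESeq2 57 (760 of all genes). With only these 2 groups fitted, 0 members were called (143 of all genes higher). In that fit 74 members had an unadjusted p under 0.05, beside 3489 of all genes in either direction.

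Against normoxia, hypoxia with T3 gave the widest difference. All 31 members of the 40S subunit and 43 of the 47 of the 60S subunit were higher and none was lower, where 25.5% of all genes were higher and 29.5% lower (55.1% in either direction). Without adjustment 76 had a p under 0.05, all of them higher, beside 7812 of all 12923 genes in either direction. The median was 0.53, a 1.44-fold increase, beside 0.00 over all genes, and 74 members had no overlap, against 29.8% of all genes. This comparison shares its libraries with the other 2, and each of its log2 changes is the sum of theirs. The count was 73 to 75 when any single library was left out, where all genes higher numbered 2613 to 3320. After that of Rps27, the largest changes were those of Rps12, Rps27l and Rpl32. Rps12 reached 235, 236 and 204 with T3, a log2 change of 0.79 from normoxia (SE 0.11, adjusted p = 0.00013). Rps27l also had 0.79 (adjusted p = 0.0012), and Rpl32 had 0.75 (adjusted p = 3.9e-05). Rpl35 had 0.70 (adjusted p = 1.7e-05), at 140, 143 and 157 in normoxia and at 260, 235 and 220 with T3. Rplp0 and Rps6 stood at 0.61 and 0.45. The members that did not pass were Rpl26 (0.42, adjusted p = 0.073), Rpl22l1 (0.22, adjusted p = 0.21), Rpl3 (0.12, adjusted p = 0.080) and Rpl30 (0.03, adjusted p = 0.78). Of these Rpl26 passed without normoxia 3 (adjusted p = 0.013) or hypoxia 7 (0.046), Rpl22l1 without normoxia 3 (0.048) and Rpl3 without T3 13 (0.017).

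To ask whether members differ from one another, each library was also centred on the median of its own members, which removes any scaling between libraries. On that scale 0 members were higher and 3 lower in hypoxia than in normoxia, where 2.15% of all genes were higher and 53.3% lower (55.4% in either direction). The 3 were Rpl3, Rpl30 and Rpl4. Without adjustment the limma counts were 0 and 6, beside 7955 of all 12923 genes in either direction. With adjustment the counts were 0 and 2 by edgeR and 1 and 2 by DESeq2.

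Rpl3, a protein with a long arm that reaches toward the catalytic centre, stood at 333, 335 and 342 in normoxia, at 325, 337 and 327 in hypoxia and at 392, 366 and 341 with T3. Hypoxia and normoxia thus overlapped. Its log2 change relative to the members was -0.36 in hypoxia (adjusted p = 0.0024). Rpl30, whose yeast counterpart represses splicing of its own transcript, stood at 17.8, 17.5 and 19.4, then at 15.3, 18.6 and 15.6, and with T3 at 19.3, 18.3 and 18.3. All 3 groups of Rpl30 overlapped, and its relative change in hypoxia was -0.47 (adjusted p = 0.0046). Its values are low beside those of most members, and whether near copies take part of its reads was not tested. Both genes are on chromosome 15, Rpl30 at chr15:34440505-34443276 and Rpl3 at chr15:80077781-80083406. Rpl4 had a relative change of -0.21 (adjusted p = 0.037), which was lost without normoxia 1 (adjusted p = 0.12), normoxia 2 (0.081), hypoxia 8 (0.096), hypoxia 9 (0.11) or T3 12 (0.061).

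Between T3 and hypoxia 0 of the 78 members differed from the member median in either direction, where 0.449% of all genes were higher and 29.0% lower (29.4% in either direction). Without adjustment the count was also 0 by limma, beside 6075 of all 12923 genes in either direction. By edgeR and DESeq2 1 member each had an unadjusted p under 0.05 and 0 passed. The interquartile range of the 78 log2 changes was 0.22 to 0.26 with T3 against hypoxia and 0.22 to 0.36 in hypoxia against normoxia. A miss of the threshold does not show that members changed by the same amount. The standard errors of the changes relative to the members ran from 0.07 for Rpl7a to 0.44 for Rps27. Against normoxia, a comparison on this scale that was added after the data were seen, Rps12 was higher with T3 than the member median (0.22, adjusted p = 0.041) and 6 were lower, where 2.53% of all genes were higher and 76.6% lower (79.1% in either direction). The 6 were Rpl3 (-0.45), Rpl30 (-0.54), Rpl4 (-0.23), Rpl22l1 (-0.36), Rpl22 (-0.22) and Rpl28 (-0.18). The calls on Rpl3 and Rpl30 held without any single library. Those on the other 4 lower members and on Rps12 were each lost without at least 3 of the 9 libraries, for example without T3 12, where their adjusted p-values were 0.071 for Rpl4, 0.13 for Rpl22l1, 0.13 for Rpl22, 0.14 for Rpl28 and 0.12 for Rps12.

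The lists hold 2 pairs of paralogs, Rpl22 with Rpl22l1 and Rps27 with Rps27l. Rpl22, a 60S protein known to lower the mRNA of its paralog Rpl22l1, stood at 145, 133 and 140 in normoxia, at 155, 153 and 151 in hypoxia and at 184, 175 and 174 with T3, with all groups apart. Its hypoxia change of 0.13 did not pass (adjusted p = 0.054; 0.040 without normoxia 1), and its T3 change of 0.22 did (adjusted p = 0.033). Rpl22l1 stood at 6.41, 7.88 and 9.72, at 8.70, 8.07 and 8.12 and at 10.9, 8.55 and 8.77, with the groups overlapping, and its changes of 0.06 and 0.15 did not pass. Rps27 had the lowest values of all members, 1.08, 1.81 and 1.86 in normoxia, 2.32, 2.1 and 2.27 in hypoxia and 18.6, 3.43 and 2.09 with T3. Its log2 change of 1.33 against normoxia (adjusted p = 0.044) was the largest of the members, fell to 0.53 without T3 11 (adjusted p = 0.048), and lost its call without any 1 of the normoxia or hypoxia libraries (adjusted p = 0.053 to 0.12).

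Reads of some members cannot be told apart from those of near copies. The row Rps27rt, a retrogene of Rps27 looked up after the low values of Rps27 were seen, stood at 97.5, 101 and 116 in normoxia, at 132, 133 and 140 in hypoxia and at 167, 158 and 146 with T3. It therefore held most of the reads of that pair, with log2 changes of 0.37 in hypoxia (adjusted p = 0.0032) and 0.21 with T3 (adjusted p = 0.083), close to the member medians. Rpl34 is likewise shared with Rpl34-ps1. The sum of Rpl34 and Rpl34-ps1 was 58.5, 63.1 and 68.1 in normoxia, 87.3, 88.7 and 97.5 in hypoxia and 118, 104 and 95.9 with T3. Rpl31 and Rpl14 each had a pseudogene row with values of the same order as their own, and levels of all these members are uncertain. Rpl30 and Rpl26 also had low values, and the share of their reads in near copies was not tested. Of 11 tested ribosomal protein genes, paralogs and pseudogenes outside the naming rule 7 were higher in hypoxia, 2 with T3 against hypoxia and 9 with T3 against normoxia, and none was lower. They include Fau, which encodes a 40S protein fused to a ubiquitin-like protein, with a log2 change of 0.36 in hypoxia (adjusted p = 0.0021).

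The counts of the other lists stand against the shares of all genes already given, 14.3% higher and 19.3% lower in hypoxia, 2.73% and 3.75% with T3 against hypoxia, and 25.5% and 29.5% with T3 against normoxia. Of 23 other translation genes whose mRNAs are known to carry a TOP tract 13 were higher in hypoxia (56.5%, median 0.18), 6 with T3 against hypoxia (26.1%, median 0.22) and 20 with T3 against normoxia (87.0%, median 0.38), and none was lower in these 3 comparisons. Eif4a2, an RNA helicase of the initiation complex, had the smallest adjusted p in hypoxia, from 283 ± 6.44 to 397 ± 19.8 (SD, n = 3), a log2 change of 0.49 (adjusted p = 0.00036). Eef2, the translocase of elongation, had the smallest with T3, with a log2 change of 0.33 (adjusted p = 0.013), and Eef1a1, which delivers aminoacyl-tRNA, had 0.27 (adjusted p = 0.036).

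Of 49 ribosome biogenesis factors 10 were higher (20.4%) and 2 lower (4.08%) in hypoxia, with a median of 0.12. Gnl3, a nucleolar GTPase, rose by 0.44, Nob1, which cuts the end of 18S RNA, by 0.41, and the nucleolar chaperone Npm1 by 0.27. Bysl, a factor of 40S maturation, changed by -0.35 (adjusted p = 0.0022). With T3 against hypoxia 3 of the 49 were higher (6.12%) and none lower (median 0.14), Eif6 (0.28), Nop56 (0.41) and Npm1 (0.25). Against normoxia 29 were higher (59.2%) and 2 lower (median 0.23). Of 16 genes of RNA polymerase I and its factors, which transcribe the ribosomal RNA, 9 were higher in hypoxia (56.25%) and none lower (median 0.28), among them Ubtf (0.35), Polr1d (0.31) and Taf1d (0.76). With T3 against hypoxia none of the 16 passed in limma (median 0.10), and Taf1d was nearest, with 0.50 (adjusted p = 0.056).

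Of 28 mTORC1 and TOP translation regulators 4 were higher (14.3%) and 7 lower (25%) in hypoxia, with a median of -0.09, shares near those of all genes. Among those higher in hypoxia were 2 inhibitors of mTORC1, Ddit4 and Sesn2, with 1.52 (adjusted p = 2.7e-07) and 1.36. The translation repressor Eif4ebp1 was also higher in hypoxia, with 0.69. Among those lower in hypoxia were Mtor itself (-0.30, adjusted p = 0.0042) and its partner Rptor (-0.59). Eef2k, the kinase that inactivates the elongation factor Eef2, was lower too (-0.63). Larp1, the TOP mRNA binding protein, missed the threshold at -0.09 (adjusted p = 0.18). With T3 against normoxia 5 of the 28 were higher (17.9%) and 12 lower (42.9%), with a median of -0.08. With T3 against hypoxia 3 were higher, Ddit4 (0.33), Sesn2 (0.52) and the mTORC1 activator Rheb (0.19), and 1 was lower, Sesn3 (-0.43). These are mRNA levels, and neither mTORC1 activity nor protein synthesis was measured.

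Subunits of other large complexes gave a yardstick. Of 76 nuclear-encoded subunits of oxidative phosphorylation 34 were higher (44.7%) and 1 lower in hypoxia (median 0.16), 8 were higher with T3 against hypoxia (10.5%, median 0.19) and 64 with T3 against normoxia (84.2%, median 0.36). Of 77 mitochondrial ribosomal proteins 17 were higher (22.1%) and 4 lower in hypoxia (median 0.11), 1 was higher with T3 against hypoxia (1.30%, median 0.10), and 35 were higher (45.5%) and 3 lower with T3 against normoxia (median 0.17). Of 36 proteasome subunits 4 were higher (11.1%) and 1 lower in hypoxia (median 0.04), 3 were higher with T3 against hypoxia (8.33%, median 0.14), and 22 were higher (61.1%) and 1 lower with T3 against normoxia (median 0.19). The medians of the cytosolic ribosomal proteins, 0.29, 0.24 and 0.53, were above each of these. The difference between lists was not tested.

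**Figure D4:**
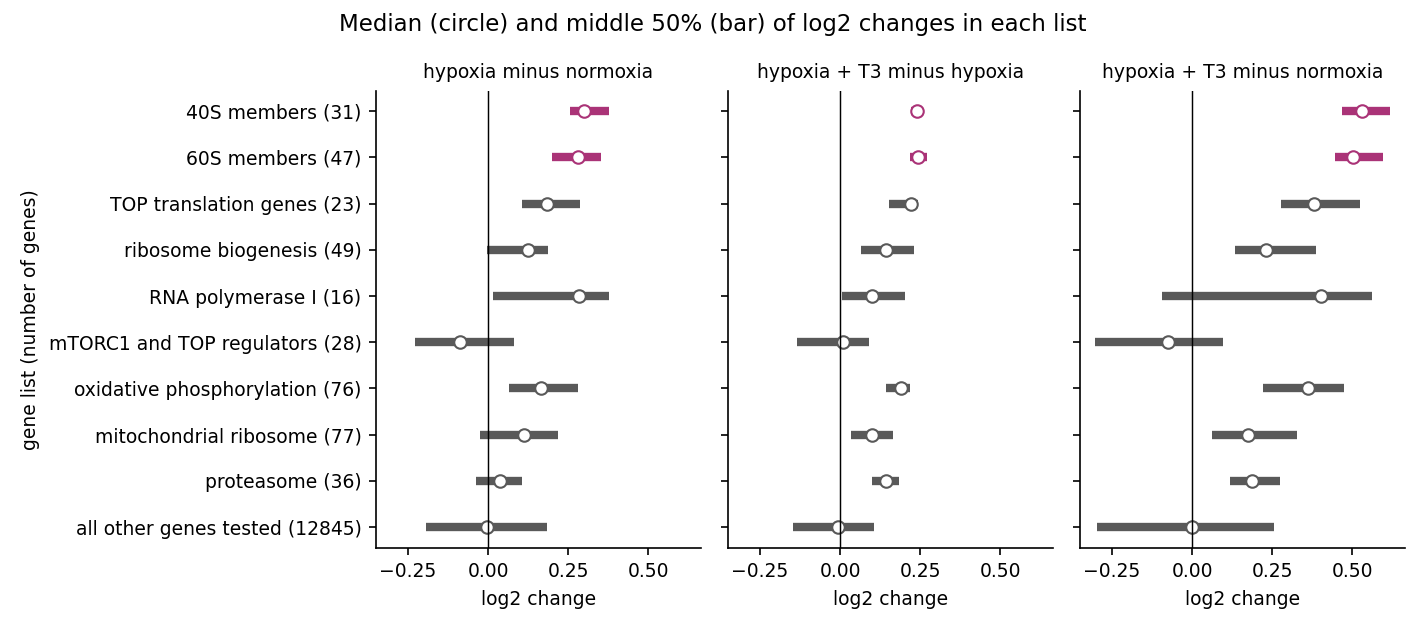
Median (circle) and interquartile range (bar) of the log2 changes in each list, for the 3 comparisons, with the number of genes tested in brackets. The 40S and 60S members have medians of 0.30 and 0.28 in hypoxia and 0.24 each with T3 against hypoxia, and the mTORC1 and TOP regulators lie around 0.

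Ribosomal proteins are short, so their changes were set beside those of other genes by coding length. The longest annotated coding sequence of the members ran from 138 to 1257 bases with a median of 454.5, against 1449 for all tested genes with one. Among 845 other genes of up to 500 coding bases 25.6% were higher in hypoxia, 4.85% with T3 against hypoxia and 47.8% with T3 against normoxia, against 14.3%, 2.73% and 25.5% of all genes. Their hypoxia and T3 against normoxia changes had medians of 0.13 and 0.23. The 47 members of that length had medians of 0.31 and 0.56. Among 2569 other genes of 500 to 1000 bases the medians were 0.06 and 0.11, and the 29 members there had 0.27 and 0.49. With T3 against hypoxia the 2 classes of other genes had 0.09 and 0.05, and the members in both had 0.24. Genes of over 4000 coding bases had medians of -0.17, -0.16 and -0.31 in the 3 comparisons. In the classes of up to 1000 bases the member medians thus lay above those of other genes, by less than they lay above the median of all genes. The part of transcript length in the result was not tested further.

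**Figure D5:**
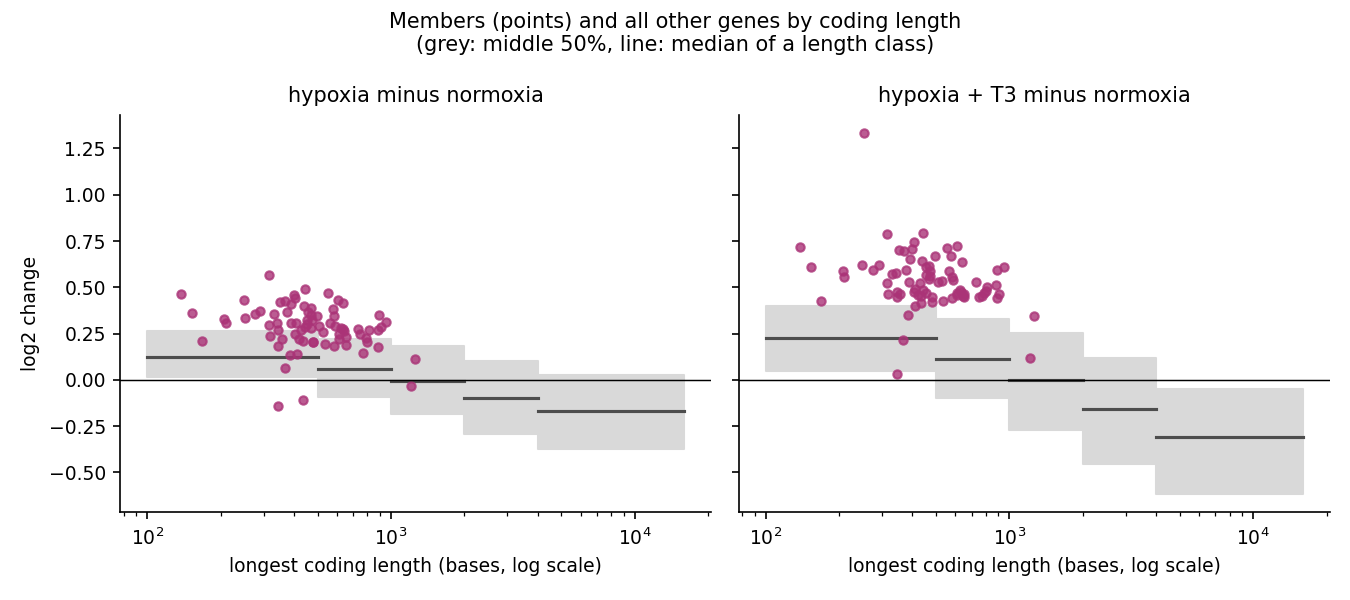
Log2 change against the longest coding length (log scale) for the 78 members (points) and for all other genes in 5 length classes (grey band for the interquartile range, line for the median; the end classes are open). Most points lie above the median of their length class, and the 2 longest, Rpl3 and Rpl4, lie among the lowest in both panels.

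Within the members the rank correlation of coding length with the log2 change was -0.30 in hypoxia and 0.02 with T3 against hypoxia (Spearman's rho over 78 genes that share the same libraries, given as a description). Among the other genes it was -0.28 and -0.34. Rpl30, Rpl26 and Rpl22l1, with 345, 435 and 366 coding bases, were shorter than the median member and had the lowest hypoxia changes together with Rpl3.

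RefSeq had 69 promoter entries of 300 bases (250 before and 50 after the start) for 58 of the 78 members. A run of at least 8 pyrimidines on the transcript strand within 20 bases of the start was found in 44.9% of the 69 entries and in 16% of the 32782 others. Runs that cross the edge of that window were counted by their part inside it. Among members with 1 entry, the 25 with such a run had a median hypoxia change of 0.29 and the 24 without it one of 0.30, and against normoxia the medians with T3 were 0.53 and 0.53. Annotated starts can differ from those used in these neurons.

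Motifs were counted on both strands of the whole 300 bases. CCGGAAG, the core bound by ETS factors, was in 36.2% of member entries and 8.80% of the others, and ATGGCGG, the core bound by YY1, in 18.8% and 4.02%. CTTTCC, which can overlap the pyrimidine run, was in 49.3% and 26.5%. ACGTG, the core of the hypoxia response element, was in 34.8% and 19.6%, and AGGTCA, the half-site bound by thyroid hormone receptors, in 10.1% and 16.3%. TATAAA, the TATA box, was in 10.1% and 13.6%. The others are all remaining entries, whether or not their genes passed the filter here, and they were not matched to the members for base content. These are matches of letters in a window, not sites shown to be bound.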

How the data were processed

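Polyadenylated RNA of 9 libraries was sequenced with a stranded protocol, per the labels' protocols. The submitters' processing notes name RSEM 1.2.15 and Bowtie2 2.1.0, the mm10 build, and edgeR without a version. The gene annotation is not given in the sources used here. The deposited values are a signal, CPM that the authors normalized by TMM. Columns summed to 945822 to 1091200. In each column 99.89% to 99.996% of values were whole multiples of the value of 1 read within 0.01 reads, which gave 17182338 to 33937842 reads per library; no member value was off that step. An unnamed column with 4 numbers was not used.

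Columns were assigned to groups by their headers. All 9 libraries were fitted together with limma 3.58.1 in R 4.3.3 (lmFit, eBayes with trend) on log2(value + 1), over 12923 genes above 1 in at least 3 libraries, with Benjamini-Hochberg adjustment and a threshold of 0.05. The 3 comparisons share libraries. The second fit subtracts from each library the median log2 value of its members. Alternatives were a threshold of 0.01, library weights, a fit with no trend, other scalings, fits of 2 groups, a filter at mean 5 and none, pseudocounts of 0.1 and 5, edgeR 4.0.16 and DESeq2 1.42.0 on recovered reads, and leaving out each library. The method was tested on simulated data. The members and gene lists were chosen with earlier results of these data known.

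Named members are, per comparison, the 4 with the largest and the 4 with the smallest change, members of the role lists and those that differ from the member median; named genes of other lists have the smallest adjusted p. Rps7, Rps10, Rps20, Rps26, Rpl15, Rpl19, Rpl24 and Rpl35a are among the members of the role lists that are counted but not described singly, and some results on single genes are not reported here. Rpl6, Rpl13a, Rpl14, Rpl34, Rps27rt and Rptor fall outside that rule, as do 6 of the members listed as higher with T3, and were named after their values were seen. Promoters are RefSeq entries of GRCm38.p6, coding lengths the longest of each gene in GENCODE M21 (92.1% of tested genes matched), and 78 of 78 members had a position and a coding length.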

Additional observations from a re-analysis of the deposited data

How the results depend on the processing

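The member median kept its sign in all 3 comparisons under every alternative, with ranges of 0.26 to 0.43 for hypoxia, 0.19 to 0.30 for T3 against hypoxia and 0.47 to 0.63 for T3 against normoxia. The hypoxia count of 61 was 37 at a threshold of 0.01 and 45 to 67 when 1 library was left out. All genes higher then numbered 842 and 1168 to 1816, beside 1846 in the main fit. The T3 count of 18 was 0 without the filter, with only the 2 groups, without the variance trend and at a threshold of 0.01, 9 with equal column sums, quantile normalization or equal sums without Rn45s, Lars2 and Mir6236 (added after the data were seen), 33 with a mean of at least 5, 57 by DESeq2, 73 with library weights and 0 to 65 when 1 library was left out. With no filter 73 members still had an unadjusted p under 0.05, beside 4046 of 19549 genes in either direction. All genes higher with T3 against hypoxia numbered 353 in the main fit. In the same order they numbered 93, 143, 94 and 22 where the member count was 0. They numbered 284, 439 and 293 where it was 9, and 472, 760 and 1391 where it was 33, 57 and 73. Leaving out 1 library gave 19 to 715. Relative to the members, the hypoxia count of 3 was 5 with a pseudocount of 5, 6 with a mean of at least 5, 26 with library weights (5 higher, 21 lower) and 2 to 6 when 1 library was left out, and the T3 count of 0 was 1 with library weights and 0 to 1 when 1 library was left out. The estimation of the library weights stopped before it converged, so its counts are uncertain. The cause of these differences was not tested.

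In hypoxia, Rpl3 turned from -0.03 to 0.11 with equal column sums, 0.094 with quantile normalization and 0.067 with equal sums without Rn45s, Lars2 and Mir6236. Rpl26, at -0.11, was 0.022 with equal column sums and ranged from -0.281 to 0.0739 when 1 library was left out, and Rpl22l1, at 0.06, ranged from -0.0704 to 0.196. None of the 3 passed as deposited. Of 59 results on single members 56 kept their direction under all 24 alternatives, and of the 37 past the threshold 21 stayed past it under each alternative at that threshold.

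No paired analysis was possible because the column headers of the hypoxia and T3 libraries carry numbers that do not occur among the replicate numbers in the titles. Low read numbers limit Rps27, Rps27l and Rpl22l1 most, and 1 read equals 0.0302 to 0.0565 of the scaled value. For Rps27 this goes with the assignment of most reads of its pair to Rps27rt.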
